A study of Drosophila melanogaster with 2 samples.

Results

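The imaginal disc growth factors of Drosophila melanogaster form a family of 6 genes, Idgf1 to Idgf6, and all 6 were found by symbol among the 17612 genes counted in single larval hemocytes. Larvae carried the driver Beadex MS1096-Gal4, which is active in the salivary gland among other tissues, with either UAS-RasV12 and the effector caspase inhibitor p35 (here P35;Ras), UAS-RasV12 alone (Ras), or belonged to the w1118 control. Hemocytes were picked by the reporter EaterDsRed, so that they are chosen as plasmatocytes. Hemocytes were removed by micro-manipulation from the surface of the glands of both tumor genotypes (attached cells), or sorted from the blood of all 3 genotypes (circulating cells). The age of the larvae was not given in the sources used here.

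Cells were used if mitochondrial reads did not exceed 10% and 200 or more genes were read, in all 19 P35;Ras and 40 Ras attached cells, and 124 P35;Ras, 126 Ras and 125 w1118 circulating cells. The cells of a group came from 10 pairs of glands or from 10 larvae bled together, and the gland or larva of each cell was not given in the sources used here. Cells were therefore not taken as replicates, no test between groups was made, and all intervals cover counting error at 95% only, for amplified reads that are not independent molecules. Median depth was 11295100 reads in attached P35;Ras cells and 11146500 in attached Ras cells, against 626613, 582056 and 637375 reads in circulating P35;Ras, Ras and w1118 cells. The attached cells were also amplified over more cycles, in another modified version of the same protocol, and were sequenced from both ends. Location and method can therefore not be told apart. A further 17 attached wells carried a label ending in _C (4 p35Ras_C, 5 Ras_C and 8 w1118_C), which the sources used here do not explain. They were kept out of the groups, and the limits on cells were not applied to them.

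All 8 plasmatocyte markers were read in every group. Their summed share was 1.11% of reads in attached P35;Ras and 1.07% in attached Ras cells, against 3.17%, 2.54% and 1.69% in circulating P35;Ras, Ras and w1118 cells. Transcripts of other tissues were abundant in attached cells, in which 10 salivary gland genes took 2.11% (P35;Ras) and 3.21% (Ras) of reads and 8 fat body genes 4.70% and 2.41%. In circulating cells the gland genes were nearly absent, with 34, 36 and 5 reads in all P35;Ras, Ras and w1118 cells, and fat body genes took 0.00738%, 0.00508% and 0.00485% of reads. The crystal cell list made up 1.59% of reads in attached P35;Ras cells and at most 0.0511% in the other groups.

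Idgf proteins are secreted relatives of the chitinases of glycoside hydrolase family GH18 that keep the chitinase fold but do not cleave chitin. They were found in medium conditioned by cultured fly cells, where they promote the growth of imaginal disc cells together with insulin, and in mammals the chitinase-like proteins of the same family are known as products of macrophages. In the larva, hemocytes and fat body are known sources of Idgf proteins, and members of the family have been linked to cuticle integrity, wound repair and clotting.

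Idgf1 (FBgn0020416, 2L:16445278-16446793), Idgf2 (FBgn0020415, 2L:16447330-16450508) and Idgf3 (FBgn0020414, 2L:16450907-16455194) lie next to each other on the plus strand of the dm6 genome. Idgf4 (FBgn0026415, X:9927973-9930948) is on the minus strand of the X chromosome. Idgf5 (FBgn0064237, 2R:18393666-18395282) and Idgf6 (FBgn0013763, 2R:16691022-16693751) are on the plus strand of 2R and apart from each other. Idgf1 and Idgf2 lie within the span of CG5888, Idgf6 overlaps the span of Pgant9, and Idgf4 that of an unnamed gene, but 0 exon bases of any member were shared with another gene. Reads that aligned to several places or genes were dropped, so the similarity of the members could lower their counts. Whether any reads were placed on the wrong member was not tested.

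Idgf6 dominated the family in every group. Per kilobase of exon, it stood at 4784 CPM (reads per 1000000 reads of the group) in attached P35;Ras and 1913 in attached Ras cells, and at 4537, 3694 and 2108 in circulating P35;Ras, Ras and w1118 cells. These levels were 7.74, 7.61, 6.32, 14.2 and 14.4 times that of the next member, and Idgf6 ranked between 6th and 23rd among all genes read in a group. The family as a whole took 1.26% of reads in attached P35;Ras and 0.519% in attached Ras cells, and 1.14%, 0.795% and 0.445% in circulating P35;Ras, Ras and w1118 cells.

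The order below Idgf6 differed between groups. In circulating P35;Ras cells Idgf1 (718 CPM per kb) was followed by Idgf2 (421) and Idgf3 (340), whereas in circulating Ras (260, 162 and 137) and w1118 cells (146, 86.0 and 44.3) the order was Idgf1, Idgf3 and Idgf2. Attached P35;Ras cells had Idgf2 (618 CPM per kb) and Idgf1 (599) next to each other, 1.03 times apart, followed by Idgf4 (426), Idgf3 (295) and Idgf5 (14.9). In attached Ras cells the order was Idgf3 (251 CPM per kb), Idgf1 (225), Idgf4 (132), Idgf2 (78.8) and Idgf5 (18.5). The ranges over cells of each pair of neighbours below Idgf6 overlapped in every group, as the plot of CPM per cell shows. The order given is one of summed levels per kilobase, and the order within single cells was not tested.

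**Figure D1:**
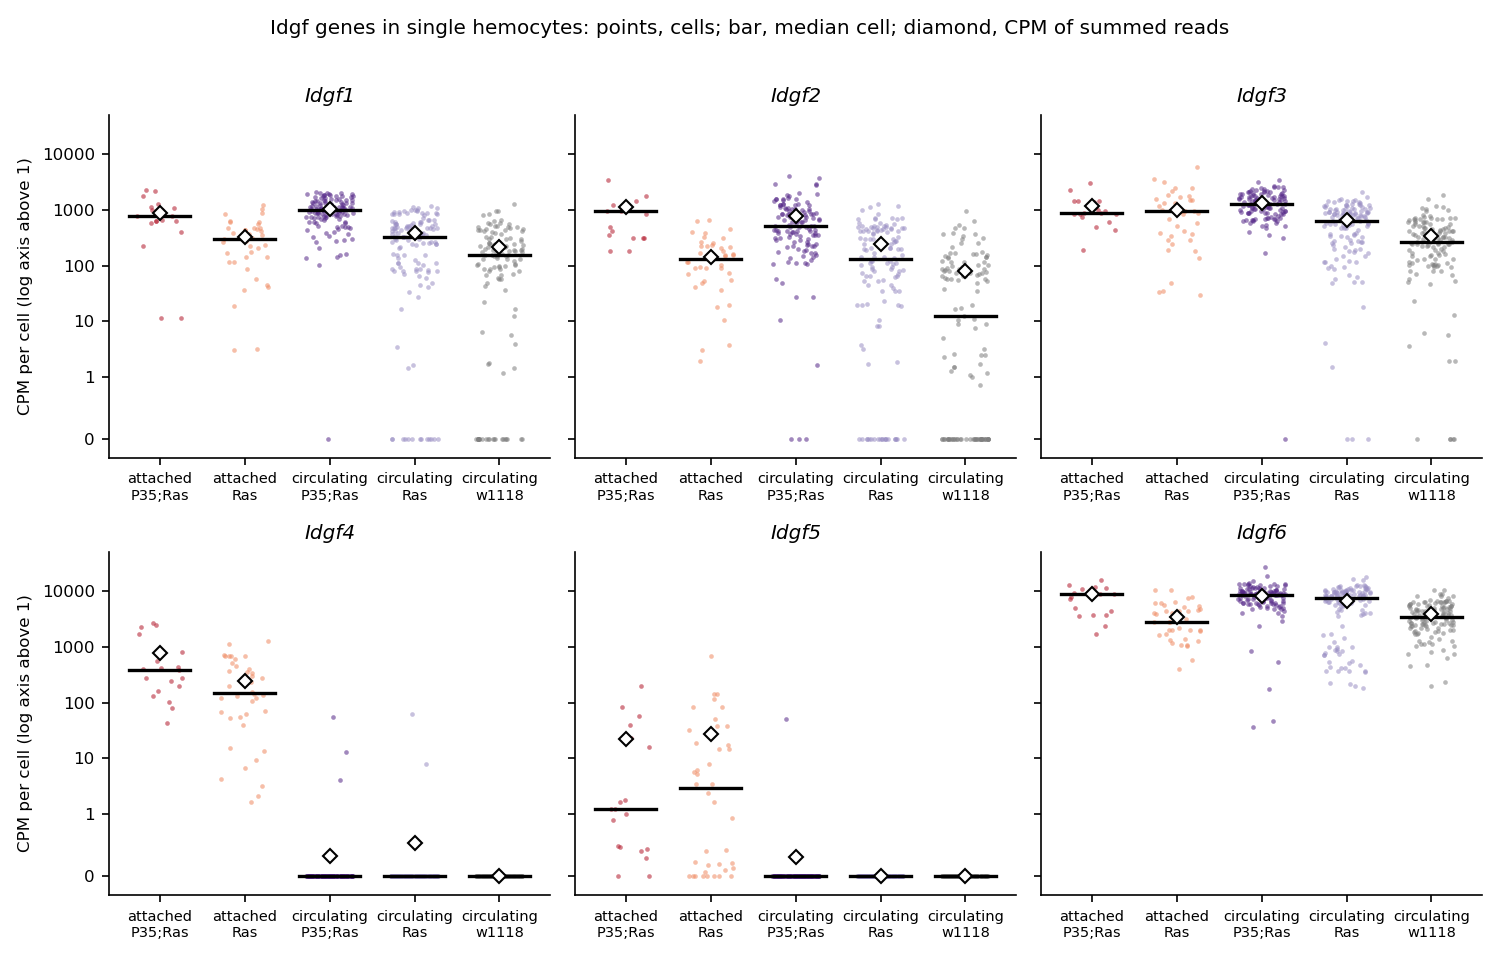
CPM of each Idgf gene per cell (y axis, logarithmic above 1) in attached (19 P35;Ras and 40 Ras) and circulating cells (124, 126 and, for w1118, 125), with a bar at the median cell and a diamond at the CPM of the summed reads. Idgf4 and Idgf5 are at 0 in nearly all circulating cells. Idgf6 has the highest summed level and the highest median cell in all 5 groups, although some single cells have more of another member.

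Circulating Ras cells were set against circulating w1118 cells to see how hemocytes that are not in contact with the gland differ in a tumor larva. Idgf1, Idgf2, Idgf3 and Idgf6 were all higher in Ras cells, by 1.75- to 3.09-fold, and Idgf2 was the only one past 2-fold. That is 1 of the 4 members with at least 10 CPM, beside 7.26% of the 6089 genes at that level, and 0 members were at least 2-fold lower, beside 1.92% of genes. The median log2 ratio of these 4 members was 0.87, beside 0.10 over all genes at that level. Of 8 plasmatocyte markers, 7 were higher in Ras cells and 1 was past 2-fold, with a median of 0.47. Both crystal cell genes at that level, PPO1 and PPO2, were past 2-fold, with a median of 2.38, and the median cell had 0 CPM of that list in either group. The part of these lists in the Idgf values was not tested.

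Idgf2 stood at 0, 129 and 1290 CPM in the lowest, median and highest Ras cell, against 0, 12.7 and 954 CPM in w1118 cells. The summed level was 246 CPM (interval 242 to 250) in Ras cells and 79.6 CPM (77.6 to 81.5) in w1118 cells, a log2 ratio of 1.63 (1.59 to 1.67). In the 12 Ras and 6 w1118 cells with at most 5% mitochondrial reads and 200 to 4000 genes it was 6.53, and the ratios of Idgf1, Idgf3 and Idgf6 were 1.47, 1.81 and 1.31. The cells of both groups overlapped over nearly the whole range, but 99 of 126 Ras cells lay above the median w1118 cell. Idgf1 reached 375 CPM in Ras and 211 CPM in w1118 cells (log2 ratio 0.83, 0.80 to 0.86), and Idgf3 642 and 340 CPM (0.92, 0.89 to 0.94). Idgf6, known as a major secreted product of cultured fly hemocyte lines, reached 6690 CPM in Ras and 3818 CPM in w1118 cells (0.81, 0.80 to 0.82), and 23 Ras cells were above the highest w1118 cell.

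Circulating P35;Ras cells were the highest circulating group for all these members. All 4 members with at least 10 CPM were past 2-fold against w1118, beside 13.5% of the 6224 genes at that level, and 0 were at least 2-fold lower, beside 5.43%. Their median log2 ratio was 2.14, beside 0.18 over all genes. This comparison shares its w1118 cells with that of Ras cells. In summed reads, 4 of 5 lamellocyte markers were past 2-fold higher than in w1118 cells and 4 of 5 higher than in Ras cells. They took 0.123% of reads here, against 0.0428% in Ras and 0.0496% in w1118 cells. The median cell was not higher, at 328 CPM, against 355 CPM in Ras and 448.5 CPM in w1118 cells. Single P35;Ras cells ranged from 0 to 29096 CPM of this list. PPO1 and PPO2 were past 2-fold against w1118 cells as well, with a median log2 ratio of 1.69, and the part of these lists in the Idgf values was not tested.

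Idgf2 stood at 0, 516 and 4037 CPM in the lowest, median and highest P35;Ras cell, and its summed level of 757 CPM (751 to 763), against 79.6 CPM in w1118 cells, was 9.51-fold higher (log2 ratio 3.25, 3.21 to 3.29). With at most 5% mitochondrial reads and 200 to 4000 genes, which left 17 of these and 6 w1118 cells, the log2 ratio was 8.30 for Idgf2 and 3.17 for Idgf1. Idgf1 stood at 0, 983 and 2066 CPM in P35;Ras cells, against 0, 157 and 1281 CPM in w1118 cells, with a log2 ratio of 2.29 (2.27 to 2.32). Here the shift reached almost the whole group, since 120 of 124 cells were above the median w1118 cell for Idgf1, 119 for Idgf2 and 122 for Idgf3. Idgf3 had 0, 1256 and 3346 CPM in P35;Ras cells, against 0, 267 and 1811 CPM in w1118 cells (log2 ratio 1.98, 1.96 to 2.00). Idgf6 had 36.8, 8327 and 26644 CPM in P35;Ras cells, against 195, 3470 and 10444 CPM in w1118 cells, and its log2 ratio of 1.11 (1.10 to 1.11) came below 1 with TMM factors, which rescale totals so that most genes are level, at 0.90.

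Circulating P35;Ras and Ras cells were then compared with each other. These genotypes differ in the caspase inhibitor but also in the pool of larvae, so that inhibitor and pool cannot be told apart. Idgf1, Idgf2 and Idgf3, the 3 neighbours on 2L, were past 2-fold in P35;Ras cells, 3 of 4 members with at least 10 CPM beside 3.38% of the 6220 genes at that level, and 0 were at least 2-fold lower, beside 2.85%. Idgf2 was 3.08-fold higher, and the log2 ratios of Idgf1 and Idgf3 were 1.47 (1.45 to 1.49) and 1.07 (1.05 to 1.08), of which that of Idgf3 came to 0.96 with TMM factors and to 0.58 under the stricter limits on cells. Idgf6 differed far less, with 8216 CPM in P35;Ras and 6690 CPM in Ras cells and a log2 ratio of 0.30 (0.29 to 0.30). The median over all genes was 0.05.

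**Figure D2:**
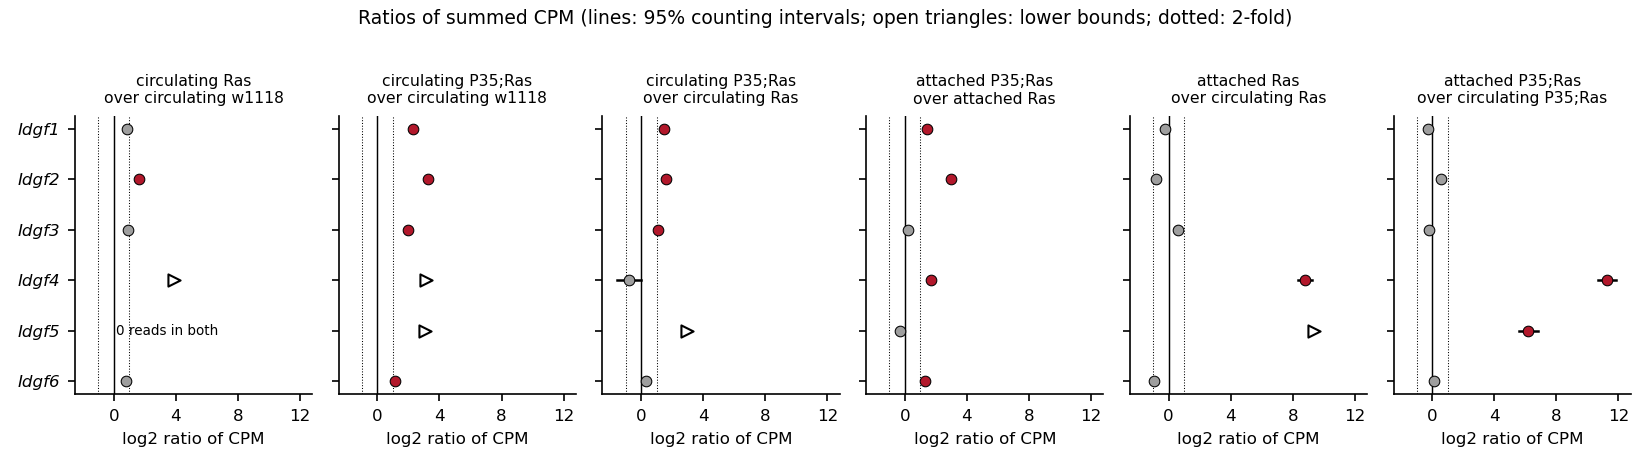
Log2 ratio of summed CPM (x axis) of each Idgf gene in the 6 comparisons, with 95% counting intervals that are mostly smaller than the symbols. Filled red circles are at least 2-fold higher at a level of 10 CPM or more, and open triangles are lower bounds against a group at 0 reads, set to 3 reads. No member is at least 2-fold lower in any of the 6 comparisons.

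In circulating cells the share with at least 1 read had the same order of genotypes as the level for Idgf1, Idgf2 and Idgf3. Idgf6 was read in every circulating cell. Idgf2 was read in 121 of 124 circulating P35;Ras cells (97.6%, Clopper-Pearson interval 93.1 to 99.5), in 106 of 126 Ras cells (84.1%, 76.6 to 90.0) and in 82 of 125 w1118 cells (65.6%, 56.6 to 73.9). After thinning each cell to 420000 reads the shares were 97.3%, 81.8% and 61.3%, in the same order. All 4 of Idgf1, Idgf2, Idgf3 and Idgf6 were read in 120 of 124 circulating P35;Ras cells (96.8%), 97 of 126 Ras cells (77.0%) and 73 of 125 w1118 cells (58.4%), and in every attached cell.

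Idgf4 and Idgf5 were almost absent from circulating cells. Idgf4 had 25 reads in 3 of 124 P35;Ras cells, 40 reads in 2 of 126 Ras cells and 0 reads in 125 w1118 cells, which allows a share of up to 2.40% of w1118 cells with a read, taking 3 cells as the limit of a count of 0. Of the 40 reads in Ras cells, 36 were in a single cell of 581172 reads, which had 6430 CPM of the plasmatocyte gene Hml and 41 reads of fat body genes. Idgf5 had 24 reads in 1 P35;Ras cell, which also held 2 Idgf4 reads, 105 fat body reads and 17 of the 34 gland reads of its group, and 0 reads in 126 Ras and 125 w1118 cells, which allows shares of up to 2.38% and 2.40% by the same count.

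The 5 circulating clusters of the deposited annotation separated high from low cells. These clusters were made from the same cells and genes, so the values are a description. Cluster 0 (93 P35;Ras, 57 Ras and 8 w1118 cells) and cluster 2 (29, 20 and 3) had the most Idgf1 (838 and 729 CPM), Idgf2 (620 and 532), Idgf3 (1125 and 1240) and Idgf6 (8983 and 7320). Cluster 1, of 32 Ras and 52 w1118 cells, had the least, with 104 CPM of Idgf1, 28.7 of Idgf2, 180 of Idgf3 and 1770 of Idgf6. Cluster 3, of 42 w1118 cells and 1 Ras cell, was next with 158, 55.1, 292 and 3883 CPM, and cluster 4, of 2 P35;Ras, 16 Ras and 20 w1118 cells, lay between with 453, 123, 539 and 5445 CPM.

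Within clusters 0 and 2, P35;Ras and Ras cells differed for Idgf1, Idgf2 and Idgf3 but little for Idgf6. In cluster 0, Idgf1 had 1075 CPM in 93 P35;Ras cells, 486 CPM in 57 Ras cells and 485 CPM in 8 w1118 cells, and Idgf2 had 802, 370 and 229 CPM. The log2 ratio of P35;Ras over Ras cells in this cluster was 1.15 (1.12 to 1.17) for Idgf1, 1.11 (1.09 to 1.14) for Idgf2 and 0.62 (0.60 to 0.64) for Idgf3, and in cluster 2 1.03 (0.98 to 1.08), 0.86 (0.81 to 0.91) and 0.63 (0.60 to 0.67). For Idgf6 it was -0.20 (-0.21 to -0.20) in cluster 0 and -0.09 (-0.10 to -0.08) in cluster 2, so that within these clusters Idgf6 was no higher in cells of P35;Ras larvae.

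Ras and w1118 cells gave a different picture by cluster. In cluster 0 Idgf1 had 486 CPM in Ras and 485 CPM in w1118 cells, with a log2 ratio of 0.00 (-0.06 to 0.06), and Idgf6 9858 and 7929 CPM (0.31, 0.30 to 0.33), although only 8 w1118 cells were in it. In cluster 1 the Ras cells were the lower ones, with 63.8 CPM of Idgf1 in Ras and 128 CPM in w1118 cells, 132 and 209 CPM of Idgf3 (-0.67, -0.73 to -0.60), and 835 and 2339 CPM of Idgf6 (-1.49, -1.51 to -1.46). Idgf2 had 28.9 CPM in Ras and 28.5 CPM in w1118 cells of that cluster (0.02, -0.14 to 0.17). In cluster 4 the Ras cells were slightly above w1118 cells for Idgf1 (517 and 377 CPM, log2 ratio 0.46, 0.40 to 0.51) and Idgf6 (5850 and 5053 CPM, 0.21, 0.19 to 0.23), and below for Idgf2 (108 and 123 CPM, -0.18, -0.30 to -0.07). Circulating Ras cells thus spread between the clusters of highest and lowest Idgf levels.

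**Figure D3:**
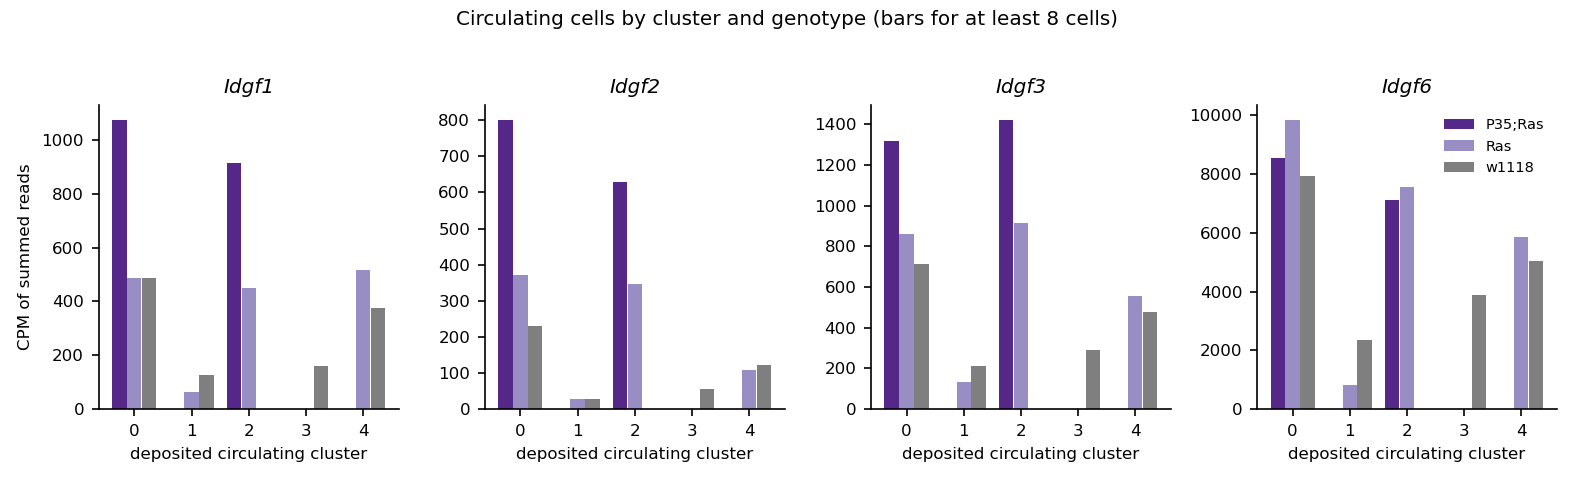
CPM of summed reads (y axis, from 0) of Idgf1, Idgf2, Idgf3 and Idgf6 in the deposited circulating clusters 0 to 4 (x axis), by genotype, with a bar wherever at least 8 cells were in a cluster. In clusters 0 and 2, P35;Ras cells are above Ras cells for Idgf1, Idgf2 and Idgf3, and the bars for Idgf6 are close in height.

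On the glands, P35;Ras cells were above Ras cells for 4 of the 6 members. Idgf1, Idgf2, Idgf4 and Idgf6 were past 2-fold, beside 16.5% of the 6337 genes with at least 10 CPM, and 0 members were at least 2-fold lower, beside 26.5%. The median log2 ratio over the 6 members was 1.37, beside -0.22 over all genes. Idgf2 stood at 180, 937 and 3428 CPM in the lowest, median and highest P35;Ras cell, against 1.92, 132 and 664 CPM in Ras cells, so that 19 of 19 cells were above the median Ras cell and 11 above the highest. The summed levels were 1110 CPM (1106 to 1115) in P35;Ras and 141 CPM (140 to 142) in Ras cells, a log2 ratio of 2.97 (2.96 to 2.98). A single P35;Ras cell held 38.3% of the Idgf2 reads, and leaving out the richest cell of each group the ratio was 2.54.

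The cells of both genotypes overlapped for the other members. Idgf1 stood at 11.5, 766 and 2277 CPM in P35;Ras cells, against 3.02, 297 and 1210 CPM in Ras cells, with a log2 ratio of 1.41 (1.40 to 1.42). Idgf6 stood at 1727, 8635 and 15811 CPM in P35;Ras cells, against 398, 2828 and 10298 CPM in Ras cells (1.32, 1.32 to 1.33), and 17 of 19 cells were above the median Ras cell. Idgf4 stood at 43.6, 386 and 2670 CPM in P35;Ras cells, against 1.68, 152 and 1244 CPM in Ras cells (1.69, 1.68 to 1.70). Fat body markers were higher in attached P35;Ras cells as well, where 4 of 7 such genes were past 2-fold, with a median log2 ratio of 1.06. Their sum ranged over 2181 to 121341 CPM per P35;Ras cell, against 1272 to 158251 CPM per Ras cell, and their part in the Idgf4 difference was not tested. Crystal cell genes differed more, with 3 of 4 past 2-fold and a median log2 ratio of 4.65. Their sum had a median of 620 CPM per cell (32.7 to 76914), against 56.2 CPM per Ras cell (0.686 to 9392). Over the 59 attached cells the rho of this list was 0.36 with Idgf1, 0.47 with Idgf2, 0.36 with Idgf4 and 0.40 with Idgf6. These values pool genotypes that differ in the list and in these members. Within the 19 P35;Ras cells, in the same order, rho was -0.05, 0.52, 0.50 and 0.52. Within the 40 Ras cells it was 0.10, 0.10, 0.24 and 0.04. The part of this list in the differences between genotypes was not tested.

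Idgf3 and Idgf5 did not separate the genotypes over all attached cells. Idgf3 stood at 187, 880 and 3018 CPM in P35;Ras cells, against 30.2, 940 and 5877 CPM in Ras cells, and its log2 ratio of 0.23 (0.22 to 0.24) turned to -0.03 when the richest cell of each group was left out. Idgf5 stood at 0, 1.24 and 195 CPM in P35;Ras cells, against 0, 2.92 and 690 CPM in Ras cells. A single cell held 68.2% of its reads in P35;Ras and another 38.7% in Ras cells, and the log2 ratio of -0.31 (-0.36 to -0.27) was -1.16 without them, past 2-fold.

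Attached cells were set against circulating cells of the same genotype, a comparison in which place and method cannot be told apart. Idgf4 and Idgf5 were past 2-fold in both genotypes, the 2 members with the highest ratios. All 7 fat body genes and all 9 gland genes with at least 10 CPM were past 2-fold as well. In Ras cells 2 of 6 members were thus past 2-fold higher, beside 12.9% of the 6625 genes with at least 10 CPM, and 0 lower, beside 25.6%, where the median over all genes was -0.41. In P35;Ras cells the counts were again 2 of 6, beside 14.6% of 6644 genes, and 0 lower, beside 40.0%, with a median over all genes of -0.66.

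Idgf4 was read in all 59 attached cells, against 3 of 124 circulating P35;Ras and 2 of 126 circulating Ras cells. Its summed level was 781 CPM (778 to 785) in attached and 0.324 CPM (0.209 to 0.478) in circulating P35;Ras cells, a log2 ratio of 11.24 (10.68 to 11.87). In Ras cells it was 241 CPM (240 to 243) on the gland and 0.546 CPM (0.390 to 0.744) in circulation, a log2 ratio of 8.79 (8.34 to 9.27). Every attached cell of either genotype was above the median circulating cell, which was at 0, and 29 of 40 attached Ras cells were above the highest circulating Ras cell. Since so few circulating cells carried the reads, the ratio without the richest cell of each group was 12.22 in P35;Ras and 11.95 in Ras cells.

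Idgf5 was read in 32 of 40 attached Ras cells, at a level of 27.7 CPM (27.3 to 28.2). This was 677-fold higher than in circulating Ras cells, which had 0 reads and were set to 3. The log2 ratio was 9.40, with a lower counting limit of 9.10. In P35;Ras cells 17 of 19 attached cells had a read, with 22.3 CPM (21.7 to 23.0) on the gland and 0.311 CPM (0.199 to 0.462) in circulation, a log2 ratio of 6.17 (5.59 to 6.81). This level was carried by few cells, since 6 P35;Ras and 14 Ras attached cells were above 10 CPM. Without the richest cell the level was 7.70 CPM in attached P35;Ras cells, under the minimum of 10 CPM, and 17.3 CPM in attached Ras cells. Thinned to 420000 reads, Idgf5 was still read in 9 of 17 attached P35;Ras cells (52.9%) and 19 of 39 Ras cells (48.7%), against 1 of 113 and 0 of 110 circulating cells.

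The members that circulating cells do express stayed within 2-fold between places, except that Idgf2 passed it in P35;Ras cells with TMM factors, at 1.32. In P35;Ras cells the log2 ratio of attached over circulating cells was 0.55 (0.54 to 0.57) for Idgf2 and 0.076 (0.072 to 0.081) for Idgf6. That of Idgf6 turned to -0.09 without its richest cells. That of Idgf2 came to 0.12 without the richest cell of each group, at 782 CPM in attached and 721 CPM in circulating cells. Those of Idgf1 and Idgf3 were -0.26 (-0.27 to -0.25) and -0.20 (-0.21 to -0.19) and turned positive with TMM factors, to 0.51 and 0.57. In Ras cells Idgf3 was higher in attached cells, at 0.63 (0.62 to 0.65), and Idgf2 and Idgf6 were lower, at -0.80 (-0.82 to -0.77) and -0.95 (-0.95 to -0.94), all with the same sign under TMM. Idgf1 had a ratio of -0.21 (-0.22 to -0.19) in Ras cells, which was 0.16 with TMM factors. Idgf1, Idgf2, Idgf3 and Idgf6 were read in every attached cell, so a lower sum did not come from fewer cells with a read. For Idgf6, 4 of 40 attached Ras cells were above the median circulating Ras cell. For Idgf2 it was 20 of 40, and the median cell had 132 CPM in attached and 129 CPM in circulating Ras cells. The upper quartile of Idgf2 was lower in attached Ras cells, at 228 CPM, against 421 CPM in circulating Ras cells.

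Over all attached cells Idgf4 went with fat body transcripts, and much less with those of the gland. Across the 59 attached cells the Spearman rho of Idgf4 with the summed CPM of 8 fat body genes was 0.71, and with 10 salivary gland genes 0.10. Among the fat body genes themselves, each against the rest of its list, rho lay between 0.25 and 0.94 with a median of 0.78. The lowest value was that of Adh, with 14 and 17 reads in the attached groups, and the other 7 genes lay at 0.72 or above, so that Idgf4 was just below them. The gland and fat body lists had a rho of 0.28 with each other. Cells of the set share glands, handling and sequencing, so that these values are a description, and rho of Idgf4 with the reads per cell was -0.18. Against the plasmatocyte markers Idgf4 had a rho of -0.51 and Idgf5 of -0.39, and the fat body list itself had -0.62.

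The relation differed between the genotypes. In 19 attached P35;Ras cells the rho of Idgf4 was 0.25 with fat body and -0.36 with gland genes, and in 40 attached Ras cells 0.80 and 0.41. With the crystal cell list it was 0.50 in the 19 and 0.24 in the 40 cells, so that among the 19 this list was closer to Idgf4 than fat body genes were. The 4 cells with most Idgf4 were all P35;Ras and had little of the gland genes, as the plot of Idgf4 against the lists shows. The first, at 2670 CPM, ranked 5th of 59 for fat body genes (96952 CPM) and 53rd for gland genes (1840 CPM). The next, at 2449 and 2224 CPM, ranked 25th and 23rd for fat body and 45th and 46th for gland genes. The median attached cell had 17.2 Idgf4 reads per 1000 fat body reads in P35;Ras and 9.97 in Ras cells, with quartiles of 6.67 to 27.5 and 4.17 to 23.1.

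**Figure D4:**
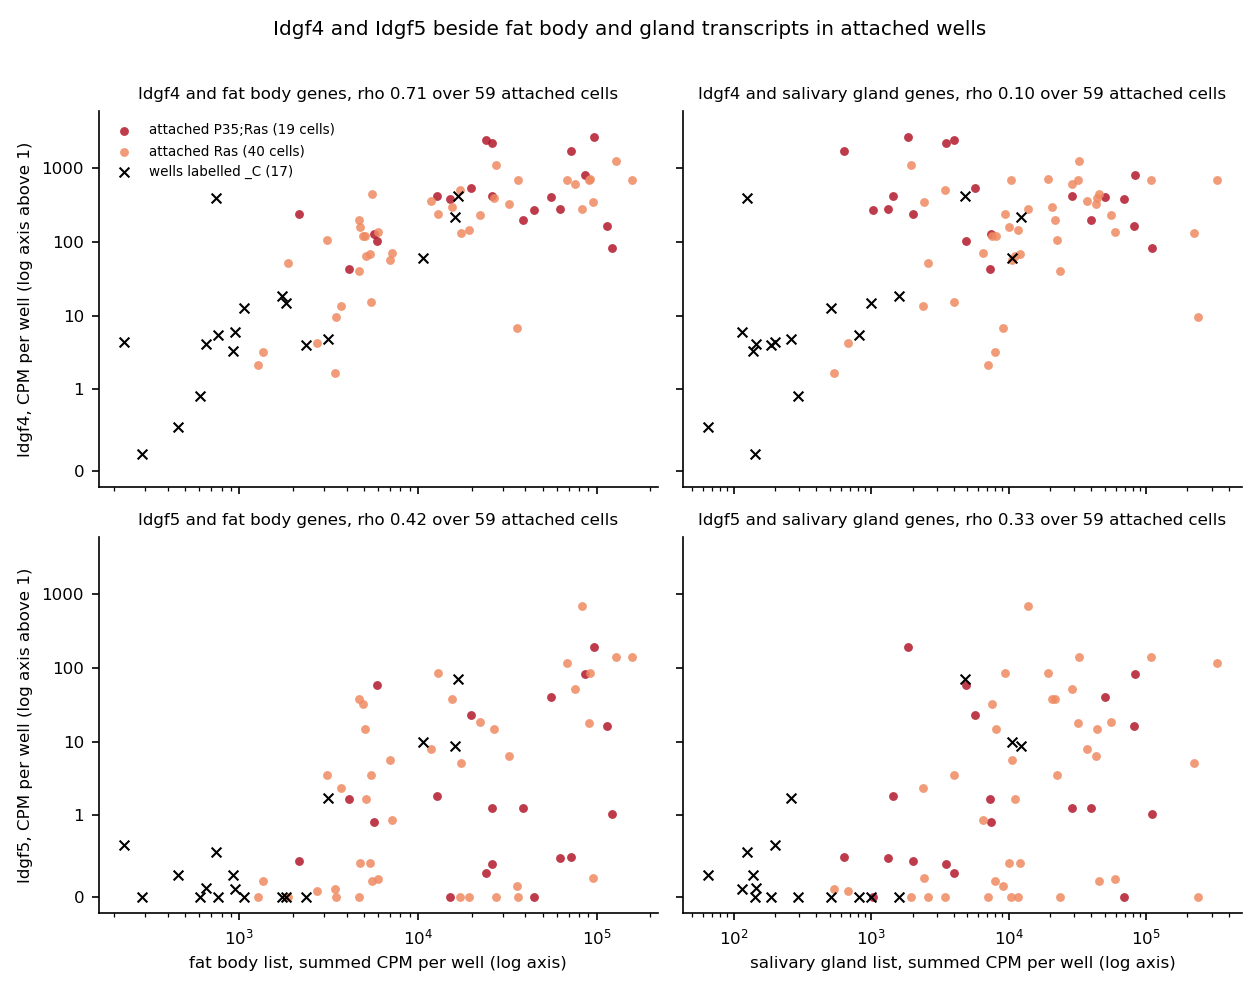
CPM per well of Idgf4 and Idgf5 (y axes, logarithmic above 1) against the summed CPM of 8 fat body genes and 10 salivary gland genes (x axes, logarithmic) in the 59 attached cells, coloured by genotype, with the 17 wells labelled _C as crosses. Idgf4 is higher where fat body genes are higher (rho 0.71) and spreads over the range of gland genes (rho 0.10), and many cells are at or near 0 for Idgf5.

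Idgf5 followed fat body genes more weakly than Idgf4 did, and gland genes somewhat more. Its rho across the 59 attached cells was 0.42 with fat body genes and 0.33 with gland genes, at 0.21 and 0.29 in P35;Ras and 0.50 and 0.43 in Ras cells. With the number of genes read per cell it was about as high, at 0.39 over all attached cells, 0.44 among the 19 and 0.36 among the 40 cells, and the part of this in the relation with either list was not tested. The 5 cells with most Idgf5, at 116 to 690 CPM, were 1 P35;Ras and 4 Ras cells, and ranked between 1st and 13th of 59 for fat body genes. For gland genes the same cells ranked anywhere between 1st and 53rd. Of these 5 cells, 2 were also among the 5 with most Idgf4. The cells with the places 2 to 4 for Idgf4 had 0.290, 0.410 and 0.490 CPM of Idgf5, so that high Idgf4 did not go with high Idgf5 in them.

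The wells labelled _C held little of these transcripts in most cases. They were not filtered: 13 of the 17 passed the limits set on cells, and 10 of the 14 over 1000000 reads. Of the 5 Ras_C wells 2 passed, and the others had 10.3% to 21.2% mitochondrial reads. In the 14 wells over 1000000 reads, fat body genes stood at 228 to 3136 CPM with a median of 847, and gland genes at 65.4 to 1592 with a median of 195, against medians of 26086 and 5690 CPM in attached P35;Ras and 9522 and 11917 CPM in attached Ras cells. Idgf4 in these wells lay between 0.203 and 18.5 CPM except for 1 w1118_C well at 391 CPM, which had 749 CPM of fat body genes. By comparison, 9 of 19 attached P35;Ras and 11 of 40 attached Ras cells were above that well, and Idgf5, at most 1.71 CPM in the 14 wells, was above it in 7 and 21 cells. The other 3 wells, of 195990 to 401080 reads, had 59.8 to 429 CPM of Idgf4 and 10709 to 16710 CPM of fat body genes. Idgf5 was read in 10 of the 17 wells, and stood at 8.72 to 71.4 CPM in these 3. Over all 17 wells the rho of Idgf4 was 0.67 with fat body and 0.60 with gland genes, and over the 14 deep wells 0.49 and 0.41. For Idgf5 it was 0.37 and 0.17 over the 17 wells and -0.17 and -0.51 over the 14.

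The members that circulating hemocytes express did read in these wells. Idgf6 stood at 1601 to 11323 CPM with a median of 4775 over the 17 wells, Idgf1 at 6.53 to 1645 with a median of 108, Idgf2 at 1.02 to 2662 with a median of 279, and Idgf3 at 2.75 to 1149 with a median of 415. Idgf2 was low in most w1118_C wells, with a median of 15.8 CPM over 8, and stood at 501 to 2662 CPM in the 4 p35Ras_C wells.

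Idgf1 and Idgf6 ran against the gland transcripts and with the plasmatocyte markers. Across the 59 attached cells the rho with gland genes was -0.53 for Idgf1 and -0.54 for Idgf6, and with plasmatocyte markers 0.50 and 0.48. The gland list itself had a rho of -0.56 with the plasmatocyte list. In the 19 attached P35;Ras cells the rho of Idgf6 with gland genes reached -0.94, against -0.38 in 40 Ras cells. Idgf2 stood between the patterns, with a rho of 0.48 with fat body genes over all attached cells, -0.06 within P35;Ras and 0.62 within Ras cells, and Idgf3 had a rho of -0.15 with fat body and 0.06 with gland genes.

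**Figure D5:**
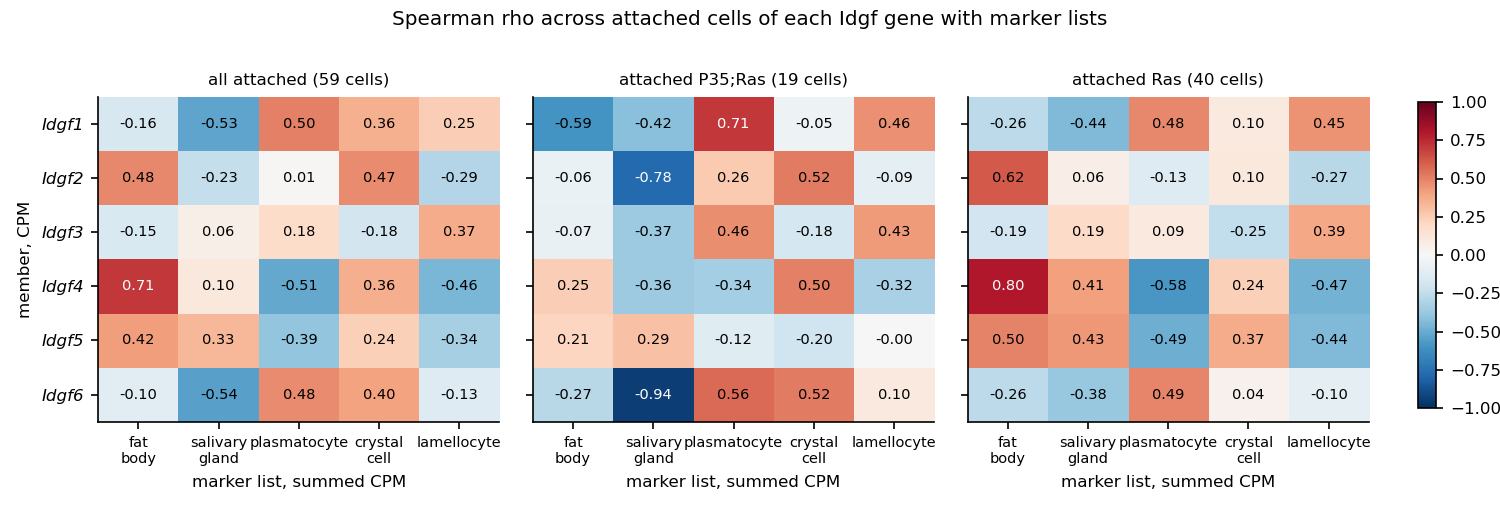
Spearman rho (colour and printed value) across attached cells between the CPM of each Idgf gene (rows) and the summed CPM of 5 marker lists (columns) over all 59 attached cells and within the 2 genotypes. Idgf4 has its highest values with fat body genes over all cells (0.71) and within Ras (0.80), and Idgf6 its lowest with gland genes within P35;Ras cells (-0.94).

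The 2 attached clusters of the annotation differed in the same members. They too were made from the same cells and genes, so the values are a description. Cluster 0 (11 P35;Ras and 16 Ras cells) had 662 CPM of Idgf4 and 40.7 of Idgf5, and cluster 1 (8 and 24 cells) 170 and 12.5 CPM. For Idgf5 the median cell was no higher in cluster 0, at 1.25 CPM, against 1.65 CPM in cluster 1, and the level of cluster 0 was 25.8 CPM without its richest cell. Idgf2 was also higher in cluster 0 (648 CPM, or 410 without its richest cell, against 242 in cluster 1). Idgf3 was lower in cluster 0 over both genotypes (803 and 1272 CPM) and in Ras cells (506 and 1329 CPM). In P35;Ras cells its summed level was higher in cluster 0 (1228 and 1054 CPM), with median cells at 875 and 1001 CPM. In cluster 0, Idgf4 had 1077 CPM in P35;Ras and 371 CPM in Ras cells, and in cluster 1 236 and 153 CPM. All 10 places among the 5 cells highest in Idgf4 and the 5 highest in Idgf5 were taken by cells of cluster 0, with 2 cells in both lists.

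The members of the 2L trio followed each other more closely in circulation than on the gland, a description over cells. Across 375 circulating cells the rho was 0.71 for Idgf1 and Idgf2, 0.75 for Idgf1 and Idgf3, and 0.75 for Idgf2 and Idgf3, and within single genotypes it stayed between 0.49 and 0.65. In attached cells Idgf1 and Idgf2 had a rho of 0.50, but Idgf3 had 0.06 with Idgf1 and 0.01 with Idgf2. Within the 19 P35;Ras cells the rho was 0.29 for Idgf1 and Idgf2, 0.29 for Idgf1 and Idgf3 and 0.49 for Idgf2 and Idgf3, and within the 40 Ras cells 0.15, -0.07 and -0.14. Idgf4 had its highest rho within the family with Idgf2 (0.53, and 0.49 within either genotype), and 0.34 with Idgf5, which was 0.02 among the 19 and 0.47 among the 40 cells.

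The genes most like each member differed between sets as well. In both sets this rho was taken over all cells with genotypes pooled, and the part of genotype in it was not tested. Among 4742 genes read in at least 50% of circulating cells, Idgf3 was closest to Sr-CI (rho 0.77), a class C scavenger receptor that takes up bacteria, and to CG34437 (0.77). Sr-CI was also among the 3 closest genes of Idgf1 (0.71) and Idgf2 (0.71). Idgf6 was closest to Pxn (0.83), a peroxidase of the extracellular matrix, NimB4 (0.82), a secreted Nimrod protein of phagocytosis, and Col4a1 (0.80), a collagen IV chain of the basement membrane.

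In attached cells NimB4 was again the closest gene to Idgf6 (rho 0.86), and Sr-CI was second for Idgf1 (0.67), after the mitochondrial gene mt:CoI (0.73). Idgf4 was closest to Npc2g (0.79), of a family of sterol-binding secreted proteins, CG2233 (0.78) and CG8369 (0.78). Idgf5 was closest to nec (0.75), a serpin that restrains Toll signalling, and Idgf2 to NijB (0.70) and the Bomanin genes BomT2 (0.65) and BomS6 (0.62), which encode Toll-induced immune peptides. Idgf3 was closest to Pdi (0.77), a protein disulfide isomerase of the secretory pathway, and NLaz (0.67), a lipocalin.

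The catalytic relatives of the family were read far less. Of 11 chitinase genes listed, 10 were matched by name, and all 10 together had 104 to 155 CPM in the 5 groups. Only 2 of them, Cht2 and Cht11, reached 10 CPM in a circulating group, and 0 of these 2 were past 2-fold in any circulating comparison. In attached P35;Ras over Ras cells, 2 of 4 chitinases with at least 10 CPM were past 2-fold higher and 1 lower, with Cht4 at 87.6 CPM, against 7.39 CPM in Ras cells.

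Genes that make or bind chitin gave little signal. Of 6 such genes only mmy, which makes the precursor sugar of chitin and of glycoproteins, reached 10 CPM in any group, with 159 to 357 CPM in the 5 groups, and it was past 2-fold in 0 of the 6 comparisons. Of 4 clot genes, Hml, also a plasmatocyte marker, had the same order of circulating groups as Idgf6, with 9106, 6873 and 3185 CPM in circulating P35;Ras, Ras and w1118 cells. The clot gene fon had 263533 reads in attached P35;Ras and 234956 in attached Ras cells, against at most 29 reads in any circulating group, so that it was nearly absent from circulation as Idgf4 was.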

How the data were processed

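The authors aligned the reads with STAR 2.7.2 and counted them per gene with featureCounts 2.0.0 under default settings, and deposited the counts per cell without normalization (dm6, annotation r6.37). Default counting drops reads that align to several genes, ignores strand and counts each mate of a pair. The deposited annotation gives genotype, cluster and a percent of mitochondrial reads, which was 0 in every deposited row and was computed anew here. Of the 17612 identifiers 64 had no name, 0 cell names were shared between the circulating and attached tables, and 5 libraries had no genotype. GEO's labels name 1 genotype for each table, whereas the cells of each hold several, so the annotation of cells was followed.

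Reads were summed per group and divided by group totals. Poisson intervals, exact conditional intervals of ratios and Clopper-Pearson shares (95%) were computed, and a group at 0 reads was set to 3. A member was counted past 2-fold if the higher group also reached 10 CPM. Members, lists and tests were chosen with earlier results of these data known. Named beside the members are the 3 genes with the highest rho to a member read in at least 25% of cells, and list genes of highest level. No doublet caller was run. Counting and rank computations were tested on simulated data. Python 3.11.15 (numpy 2.4.6, pandas 2.3.3, scipy 1.17.1), R 4.3.3 and edgeR 4.0.16 (TMM factors only) were used.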

Additional observations from a re-analysis of the deposited data

Results flagged for a closer look

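Idgf2, Idgf3 and Idgf6 had opposite signs in P35;Ras and Ras cells for attached over circulating cells, with counting intervals that exclude 0. The log2 ratios were 0.55 in P35;Ras and -0.80 in Ras cells for Idgf2, -0.20 and 0.63 for Idgf3, and 0.076 and -0.95 for Idgf6. With no replicates given, the difference between the genotypes was not tested, and the sign of the P35;Ras ratio of Idgf3 turns with TMM factors and that of Idgf6 without its richest cells. The P35;Ras ratio of Idgf2 came to 0.12 without its richest cells.

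The attached library without a genotype, of 19483638 reads, had 4263 CPM of Idgf2, above every attached cell of a group (highest 3428 CPM) and every well labelled _C (highest 2662 CPM). It had 8.21 CPM of Idgf4 and 1869 CPM of fat body genes.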

How the results depend on the processing

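Other settings changed few counts of members past 2-fold. In circulating Ras over w1118 cells 1 member was higher, against 4 with at most 5% mitochondrial reads and 200 to 4000 genes (12 Ras and 6 w1118 cells), 4 at 1.5-fold and 2 with no minimum but more than 3 reads. In attached P35;Ras over Ras cells 0 were lower, against 1 (Idgf5) without the cell with most reads of the member. In attached over circulating cells 2 were higher in each genotype, against 1 with at least 50 CPM in each and 1 without the cell with most reads in P35;Ras, and 2 were lower at 1.5-fold in Ras cells. The rho of Idgf4 with gland genes, 0.10, was -0.36 within P35;Ras and 0.41 within Ras cells, and with fat body genes, 0.71, it was 0.25 within P35;Ras cells. For Idgf5 the rho with gland genes, 0.33, was 0.43 within Ras, and with fat body genes, 0.42, it was 0.21 within P35;Ras cells. The cause was not tested. TMM factors moved the median of all genes by -0.11, -0.21 and -0.10 in the circulating comparisons (Ras over w1118, P35;Ras over w1118, P35;Ras over Ras), by 0.31 in attached P35;Ras over Ras and by 0.77 (P35;Ras) and 0.36 (Ras) in attached over circulating cells. All other counts stayed within 1.5 times and all other rho values within 0.1, also without the 3 attached cells under 1000000 reads, a setting chosen after seeing the data. The filter at 4000 genes left no attached cell and gave no value there. No paired analysis was possible because the gland or larva of each cell was not given. Counts of reads limit Idgf4 and Idgf5 in circulation, where 1 read at the median depth is 1.57 to 1.72 CPM, against 0.0885 to 0.0897 CPM in attached cells.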

Other observations

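The 4 circulating libraries without a genotype had 866 to 2500 reads each, of which 3 to 7 were of Idgf6 and 0 of Idgf4 or Idgf5. The circulating cell with the fewest reads that was kept, a P35;Ras cell, had 2129 reads.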
